A study of Rattus norvegicus with 12 samples.

Results

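Mitochondrial carriers of the SLC25 family were followed in papillary muscles of the rat right ventricle held in culture under 4 mechanical conditions. The members were the probe sets of the full array table whose single gene symbol began with Slc25a. There were 58 such probe sets among 31042 that were not controls, and they stood for 40 of 14217 genes with a probe set of a single symbol. Of these, 47 probe sets for 35 carriers passed a filter on dim signal (a mean log2 signal of at least 4.91 over all arrays), and 10316 genes in all were tested. Another 2 probe sets of Slc25a51 carried 2 gene numbers and were left out.

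The carriers sit in the inner membrane of mitochondria, and a few in the outer membrane or in peroxisomes. Each moves a small molecule or an ion across the membrane, usually in exchange for another. They bring ADP, phosphate, reducing equivalents, fatty acyl groups, amino acids, cofactors and iron into the matrix and carry ATP and intermediates out. Heart muscle depends on them because nearly all of its ATP is made in mitochondria and spent on contraction and ion pumping outside them.

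Every rat (male, strain LBNF1) contributed 1 muscle, which was paced at 1 Hz for 12 h and gave 100 ng of total RNA for 1 Affymetrix array. The 4 groups of 3 muscles were high mean stretch with high cyclic shortening (targets of 16% and 16% of slack length, here both-high), high stretch with low shortening (16% and 4%, stretch-high), low stretch with high shortening (4% and 16%, shortening-high), and low stretch with low shortening (4% and 4%, both-low). Labelled animal age, whose unit was not stated, was 78 to 85, 72 to 81 and 75 to 84 in the first 3 groups and 75 in all both-low animals. No muscle was left out of culture, so both-low muscles are the mildest mechanical condition and not fresh tissue. Values are log2 signals that the authors normalized by RMA, a method that summarizes the probes of a probe set as 1 value.

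The both-low arrays formed a set of their own. Over all probe sets, whose values depend on each other, Pearson's r was 0.951 to 0.962 between both-low arrays and the others, against 0.984 to 0.996 among the other 9 and 0.991 to 0.993 among the both-low arrays. The 3' to 5' index, which is the excess of the 3' over the 5' control probe sets of Gapdh and Actb in log2 and a measure of RNA length, was 2.56 to 4.33 on the other 9 arrays and 1.13 to 1.69 on the both-low arrays. Labelled weights (unit not stated) were 267 to 297 for the other animals and 305 to 318 for the both-low animals. The cardiomyocyte label held: 9 of 10 markers were tested, with a mean log2 signal of 13.31 in both-high, 13.26 in stretch-high, 13.28 in shortening-high and 13.57 in both-low muscles. The index, the weight and the marker levels all move with the both-low group in every comparison that uses it, and their part in the results was not tested except where the index enters a fit below.

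The brightest carriers were Slc25a4, Slc25a3 and Slc25a5, which move ADP, ATP and phosphate. Slc25a4, the ADP/ATP exchanger of heart and skeletal muscle, read 13.60, 13.69 and 13.75 on the both-high arrays, 13.57, 13.66 and 13.63 on the stretch-high arrays, 13.83, 13.75 and 13.77 on the shortening-high arrays, and 14.22, 14.003 and 14.08 on the both-low arrays. Every both-low array lay above the other 9, and the group with high stretch and low shortening was lowest on average. Slc25a3, which brings in the phosphate used to make ATP, read 13.37, 13.55 and 13.62 on the both-high arrays, 13.43, 13.50 and 13.49 on the stretch-high arrays, 13.61, 13.58 and 13.61 on the shortening-high arrays, and 13.89, 13.76 and 13.84 on the both-low arrays. Here too the both-low arrays lay above all others, by a smaller step. Slc25a5, the ADP/ATP exchanger found in most tissues, read 12.84, 12.83 and 12.80 on the both-high arrays, 12.87, 12.70 and 12.80 on the stretch-high arrays, 12.81, 12.98 and 12.81 on the shortening-high arrays, and 13.04, 12.61 and 12.74 on the both-low arrays. Its groups overlapped, and the both-low arrays held both its highest and its lowest value.

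Pooled over the 3 groups with at least 1 high input and set against both-low muscles, Slc25a4 differed by -0.41 (SE 0.08, adjusted p = 0.000963) in limma, 1.33-fold lower with a high input. Slc25a3 differed by -0.30 (SE 0.08, adjusted p = 0.00716), which is 1.23-fold lower. Slc25a5 differed by 0.03 with a 95% interval of -0.18 to 0.24. These 3 bright genes were sensitive to the scaling: with quantile normalization applied again the differences became -0.22 (adjusted p = 0.0396) for Slc25a4, -0.06 (0.565) for Slc25a3 and 0.33 (0.00894) for Slc25a5, so that the call of Slc25a3 ended and Slc25a5 became a call, higher with a high input. The order of the 3 was the same under both scalings, with Slc25a4 lowest relative to both-low and Slc25a5 highest.

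The 3 calcium-regulated exchangers of ATP-Mg for phosphate set the total adenine nucleotide content of the matrix. Of these, Slc25a24 and Slc25a25 were higher with a high input and Slc25a23 was not called in its brightest probe set. Slc25a24 read 9.70, 9.71 and 9.60 on the both-high arrays, 10.69, 9.57 and 9.18 on the stretch-high arrays, 9.53, 10.22 and 8.87 on the shortening-high arrays, and 7.84, 8.56 and 8.19 on the both-low arrays. It was lower on all 3 both-low arrays than on any other, and it was also the carrier with the widest spread within groups (SD 0.55, against a median of 0.19 over the 35 carriers and 0.19 over all genes tested). The difference was 1.47 (SE 0.31, adjusted p = 0.00128), or 2.78-fold higher with a high input. Slc25a25, a relative with the same calcium-binding domain, read 8.11, 8.32 and 8.15 on the both-high arrays, 8.28, 8.17 and 8.54 on the stretch-high arrays, 8.44, 7.91 and 8.44 on the shortening-high arrays, and 7.76, 7.63 and 7.60 on the both-low arrays. All 9 arrays with a high input exceeded the both-low arrays, by 0.60 (SE 0.13, adjusted p = 0.00138), 1.51-fold. The third relative, Slc25a23, averaged 7.03 ± 0.33 in both-high, 7.26 ± 0.38 in stretch-high, 7.37 ± 0.40 in shortening-high and 7.07 ± 0.07 in both-low muscles (SD, n = 3 each) and overlapped (0.15 (SE 0.19, adjusted p = 0.517)), and Slc25a41, a calcium-independent relative, was dim and differed by 0.06 (-0.16 to 0.28). A dimmer probe set of Slc25a23 was called, higher with a high input (0.49, adjusted p = 0.00157 in the fit of all probe sets). Slc25a31, an ADP/ATP exchanger of germ cells, averaged 3.89 and was under the filter. In this role 2 carriers were higher, 2 lower and 3 not called of 7 tested, and over all genes 57.6% were called, 28.2% higher and 29.4% lower.

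**Figure D1:**
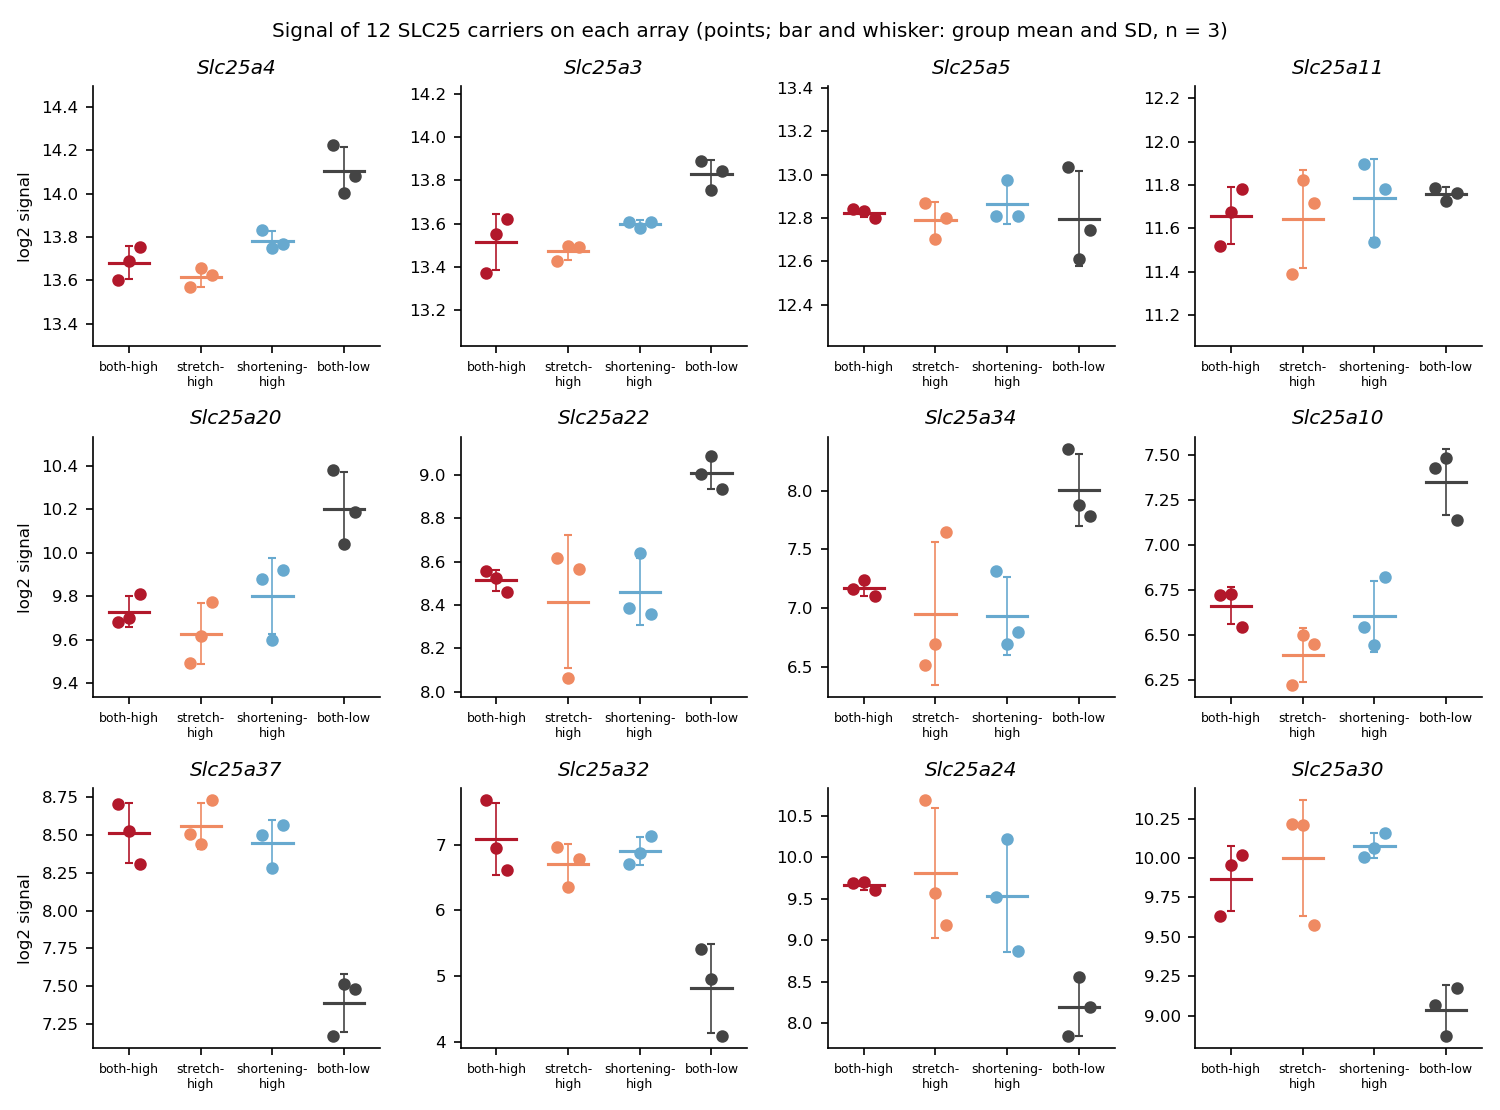
Log2 signal (vertical axes, each with its own range) of 12 carriers on each array, by group (horizontal axes); points are arrays, bars group means and whiskers SD (n = 3). Both-low arrays lie above the other 9 for Slc25a4, Slc25a3, Slc25a20, Slc25a22, Slc25a34 and Slc25a10 and below them for Slc25a37, Slc25a32, Slc25a24 and Slc25a30, while Slc25a5 and Slc25a11 overlap. The 12 were selected for display. Of all 35 tested carriers 14 were without overlap and 21 overlapped, while 44.5% of all genes were without overlap.

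The malate-aspartate shuttle brings the reducing power of cytosolic NADH into the matrix. Read from their brightest probe sets and without a covariate, none of its 3 carriers was called in any of the 10 comparisons. Slc25a11, the malate/oxoglutarate exchanger, averaged 11.66 ± 0.13 in both-high, 11.64 ± 0.23 in stretch-high, 11.74 ± 0.18 in shortening-high and 11.76 ± 0.03 in both-low muscles (SD, n = 3 each), and its pooled difference of -0.08 had an interval of -0.32 to 0.16. Slc25a12, the aspartate/glutamate exchanger of heart and brain, read 10.31, 10.64 and 10.73 on the both-high arrays, 9.78, 10.54 and 10.54 on the stretch-high arrays, 10.99, 10.20 and 10.59 on the shortening-high arrays, and 10.09, 10.05 and 9.97 on the both-low arrays. It averaged higher with a high input without passing (0.44 (SE 0.19, adjusted p = 0.0606)), with 1 stretch-high array under the both-low range. That difference passed when replicate 1 of both-high (adjusted p = 0.0465), replicate 1 of stretch-high (0.0115) or replicate 2 of shortening-high (0.0264) was left out, and under repeated quantile normalization (0.53, 0.0272). With the 3' to 5' index in the fit it turned to -0.73 (adjusted p = 0.231). Slc25a13, the related exchanger best known from liver, differed by -0.22 (-0.50 to 0.05) in its brighter probe set. Its dimmer probe set was lower with a high input (-1.04, adjusted p = 0.000144 in the fit of all probe sets). The mean of its probe sets gave -0.63 (0.000735), and the brighter one with the index in the fit gave -0.94 (0.0419).

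Of 5 carriers grouped under carnitine, dicarboxylates and citrate, 3 were lower with a high input, 1 was higher and 1 was not called. Of all genes 57.6% were called, 28.2% higher and 29.4% lower. Slc25a20, which exchanges acylcarnitine for carnitine and is required for long-chain fatty acid oxidation, read 9.68, 9.70 and 9.81 on the both-high arrays, 9.49, 9.62 and 9.77 on the stretch-high arrays, 9.88, 9.60 and 9.92 on the shortening-high arrays, and 10.38, 10.04 and 10.19 on the both-low arrays. The both-low arrays lay above all others, and the difference was -0.48 (SE 0.11, adjusted p = 0.00186), 1.40-fold. Slc25a10, which exchanges malate or succinate for phosphate, read 6.72, 6.72 and 6.54 on the both-high arrays, 6.22, 6.50 and 6.45 on the stretch-high arrays, 6.54, 6.44 and 6.82 on the shortening-high arrays, and 7.43, 7.48 and 7.14 on the both-low arrays. Its both-low arrays were again above the other 9 without overlap, and the difference was -0.80 (SE 0.11, adjusted p = 7.25e-05), 1.74-fold. Slc25a21, a carrier of oxoadipate and oxoglutarate, was -0.37 (adjusted p = 0.0231), a call that ended without replicate 2 (0.0768) or replicate 3 (0.0752) of both-low. Slc25a29, a carrier of basic amino acids first described as related to the carnitine carrier, was counted in this group. Slc25a29 averaged 7.14 ± 0.10 in both-high, 7.19 ± 0.35 in stretch-high, 7.22 ± 0.23 in shortening-high and 6.57 ± 0.03 in both-low muscles (SD, n = 3 each) and was 0.61 (SE 0.14, adjusted p = 0.00204) higher. Slc25a1, the citrate carrier, overlapped across groups (0.29, interval -0.14 to 0.72).

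Among 4 tested carriers grouped under amino acids, without Slc25a29 above, 3 were lower and 1 higher with a high input. Of all genes 57.6% were called, 28.2% higher and 29.4% lower. Slc25a22, a glutamate carrier, read 8.56, 8.52 and 8.46 on the both-high arrays, 8.62, 8.06 and 8.56 on the stretch-high arrays, 8.38, 8.64 and 8.36 on the shortening-high arrays, and 9.01, 9.09 and 8.94 on the both-low arrays. Every array with a high input was below every both-low array, and the difference was -0.55 (SE 0.12, adjusted p = 0.00183), 1.46-fold. Slc25a44, a carrier of branched-chain amino acids, read 6.96, 7.11 and 6.70 on the both-high arrays, 7.01, 6.78 and 6.39 on the stretch-high arrays, 6.91, 7.22 and 7.39 on the shortening-high arrays, and 7.52, 7.70 and 7.57 on the both-low arrays. Its shortening-high arrays came nearest to both-low, and the pooled difference was -0.65 (SE 0.14, adjusted p = 0.00179). Slc25a38, which brings in glycine for haem synthesis, was -0.39 (adjusted p = 0.014), and this call ended without replicate 2 (0.0654) or replicate 3 (0.0834) of both-low. Slc25a15, the ornithine carrier, was 0.46 (SE 0.11, adjusted p = 0.00372) higher in the brightest of 5 tested probe sets. Slc25a18, a second glutamate carrier, averaged 4.52 and was under the filter.

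Carriers of cofactors and nucleotides held the carrier with the largest difference. Slc25a32, a carrier linked to folate and FAD, read 7.68, 6.95 and 6.62 on the both-high arrays, 6.96, 6.35 and 6.78 on the stretch-high arrays, 6.71, 6.87 and 7.13 on the shortening-high arrays, and 5.42, 4.95 and 4.08 on the both-low arrays. The lowest array with a high input lay above the highest both-low array, and both-low replicate 3 was under the filter. The difference was 2.08 (SE 0.27, adjusted p = 3.26e-05), 4.22-fold higher, or 1.80 (adjusted p = 1.33e-05) with values under the filter raised to it. Slc25a36, a carrier of pyrimidine nucleotides, read 10.32, 10.27 and 10.43 on the both-high arrays, 10.18, 9.90 and 10.24 on the stretch-high arrays, 10.23, 10.12 and 10.16 on the shortening-high arrays, and 10.22, 9.63 and 9.62 on the both-low arrays. Both-low replicate 1 lay among the arrays with a high input, and the call (0.38 (SE 0.13, adjusted p = 0.0233)) ended without both-low replicate 2 (0.133) or replicate 3 (0.137). Slc25a17, a carrier of the peroxisomal membrane, was 0.47 (SE 0.14, adjusted p = 0.0106) higher, and its call ended without both-low replicate 2 (0.0642). The carriers of coenzyme A (Slc25a42, -0.24), of pyrimidine nucleotides (Slc25a33, -0.31), Slc25a16 (-0.33) and Slc25a51l1 (-0.24) were not called, which leaves 3 higher and 4 not called of 7, where 57.6% of all genes were called.

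Iron and glutathione carriers divided. Slc25a37, mitoferrin-1, which brings iron into the matrix for haem and iron-sulfur clusters, read 8.70, 8.53 and 8.31 on the both-high arrays, 8.51, 8.44 and 8.73 on the stretch-high arrays, 8.50, 8.28 and 8.57 on the shortening-high arrays, and 7.17, 7.52 and 7.48 on the both-low arrays. The groups with a high input lay close together and far above both-low, by 1.12 (SE 0.12, adjusted p = 6.53e-06), 2.17-fold, the smallest adjusted p among the carriers. Slc25a28, mitoferrin-2, averaged 8.59 ± 0.01 in both-high, 8.61 ± 0.14 in stretch-high, 8.68 ± 0.09 in shortening-high and 8.79 ± 0.07 in both-low muscles (SD, n = 3 each) and differed by -0.17 (-0.35 to 0.02). Slc25a39, a carrier of glutathione, was -0.45 (SE 0.11, adjusted p = 0.00391) lower, and its shortening-high arrays, at 9.16, 9.05 and 9.41, overlapped the both-low range of 9.37 to 9.47.

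Of the uncoupling-type carriers, Slc25a30 read 9.63, 9.96 and 10.02 on the both-high arrays, 10.21, 10.21 and 9.57 on the stretch-high arrays, 10.004, 10.07 and 10.16 on the shortening-high arrays, and 9.07, 8.87 and 9.18 on the both-low arrays in its brighter probe set. The both-low arrays were the lowest, with a difference of 0.94 (SE 0.14, adjusted p = 0.000122), 1.92-fold. Its dimmer probe set was called the other way (-0.43, adjusted p = 0.0487), and with both averaged the call ended (0.26, 0.0821). Slc25a14, best known from brain, overlapped in all groups (-0.01, -0.40 to 0.38), and Slc25a27 averaged at most 4.16 in its 3 probe sets, under the filter. Slc25a34, a carrier of uncertain substrate, read 7.16, 7.24 and 7.10 on the both-high arrays, 6.51, 6.69 and 7.65 on the stretch-high arrays, 7.31, 6.69 and 6.80 on the shortening-high arrays, and 8.36, 7.88 and 7.78 on the both-low arrays. It was lower with a high input by -0.99 (SE 0.22, adjusted p = 0.00197), 1.98-fold, although stretch-high replicate 3, at 7.65, came close to the both-low range. This was the largest fall among the carriers read from their brightest probe sets, while dimmer probe sets of Slc25a46 (-2.01) and Slc25a13 (-1.04) fell further. Slc25a46, a protein of the outer membrane that acts in mitochondrial shape, was 0.68 (SE 0.12, adjusted p = 0.000387) in its brighter probe set. Slc25a45 was 0.48 (SE 0.12, adjusted p = 0.00531) higher and Slc25a48 differed by 0.16 (-0.05 to 0.37), while Slc25a35 (4.86) and Slc25a53 (4.73) were under the filter.

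Counted together, 21 of the 35 carriers (60%) passed in the pooled comparison, 11 higher and 10 lower with a high input. Over all genes tested 57.6% passed, 28.2% higher and 29.4% lower, so the carriers' share was near the background. Their median difference was -0.01 log2, against 0.02 over all genes, and the median size was 0.41 in both. On all 3 both-low arrays, 14 carriers lay outside the range of the other 9 arrays, 7 above and 7 below, while 44.5% of all genes did so. Of the 17 carriers of highest mean signal 12 were called, and of the 18 others 9 were. The split was not made over all genes, so it is not read as a trait of the carriers. The pooled comparison and the 3 below it share the both-low arrays, so they are not independent of each other. In bulk muscle, fewer cells of a type and less RNA per cell cannot be told apart.

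High stretch alone, read as stretch-high minus both-low muscles, moved 16 carriers past the threshold (8 higher, 8 lower; 45.7%, against 49.9% of all genes). The rises were Slc25a32 (1.88), Slc25a24 (1.61), Slc25a37 (1.17), Slc25a30 (0.96), Slc25a25 (0.67), Slc25a29 (0.62), Slc25a46 (0.58) and Slc25a15 (0.48). The falls were Slc25a34 (-1.06), Slc25a10 (-0.96), Slc25a44 (-0.87), Slc25a22 (-0.59), Slc25a20 (-0.58), Slc25a39 (-0.53), Slc25a4 (-0.49) and Slc25a3 (-0.36). The falls took in the ADP/ATP, phosphate and acylcarnitine carriers, and the rises 2 of the calcium-regulated ATP-Mg carriers. High shortening alone, shortening-high minus both-low, moved 16 carriers (9 higher, 7 lower; 45.7%, against 49% of all genes). Slc25a32 (2.09), Slc25a24 (1.34), Slc25a37 (1.06), Slc25a30 (1.04), Slc25a46 (0.84), Slc25a29 (0.65), Slc25a15 (0.60), Slc25a25 (0.60) and Slc25a17 (0.50) were higher. Slc25a34 (-1.07), Slc25a10 (-0.74), Slc25a22 (-0.55), Slc25a21 (-0.54), Slc25a38 (-0.46), Slc25a20 (-0.40) and Slc25a4 (-0.32) were lower. Slc25a3 was not called here (-0.23, adjusted p = 0.0752), nor were Slc25a44 (-0.42) and Slc25a39 (-0.23), and whether the effects of stretch and shortening differed for these was not settled, since stretch-high against shortening-high gave no call.

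With both inputs high, 19 carriers passed against both-low (10 higher, 9 lower; 54.3%, against 49.6% of all genes). Among brightest probe sets, Slc25a32 (2.27) and Slc25a24 (1.47) again had the largest rises, and Slc25a34 (-0.84) and Slc25a10 (-0.69) the largest falls. Slc25a45 (0.68) and Slc25a36 (0.52) passed here and not with either input alone. With high stretch they gave 0.38 (adjusted p = 0.0541) and 0.28, and with high shortening 0.38 and 0.35. No carrier was called between both-high and either group with 1 high input, so no difference between 1 high input and both was shown. The dimmer probe set of Slc25a36 averaged 8.03 in both-high, 8.12 in stretch-high, 8.06 in shortening-high and 7.41 in both-low muscles. The other calls were Slc25a37 (1.12), Slc25a30 (0.83), Slc25a46 (0.61), Slc25a17 (0.59), Slc25a29 (0.57) and Slc25a25 (0.53), all higher, and Slc25a44 (-0.67), Slc25a39 (-0.59), Slc25a22 (-0.50), Slc25a20 (-0.47), Slc25a4 (-0.42), Slc25a38 (-0.38) and Slc25a3 (-0.31), all lower. In all 3 of these comparisons, which share the both-low arrays, 12 carriers passed, and 21 passed in at least 1. The same overlap was not counted over all genes, of which 49.9%, 49% and 49.6% passed in each. It is therefore not read as a trait of the carriers.

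**Figure D2:**
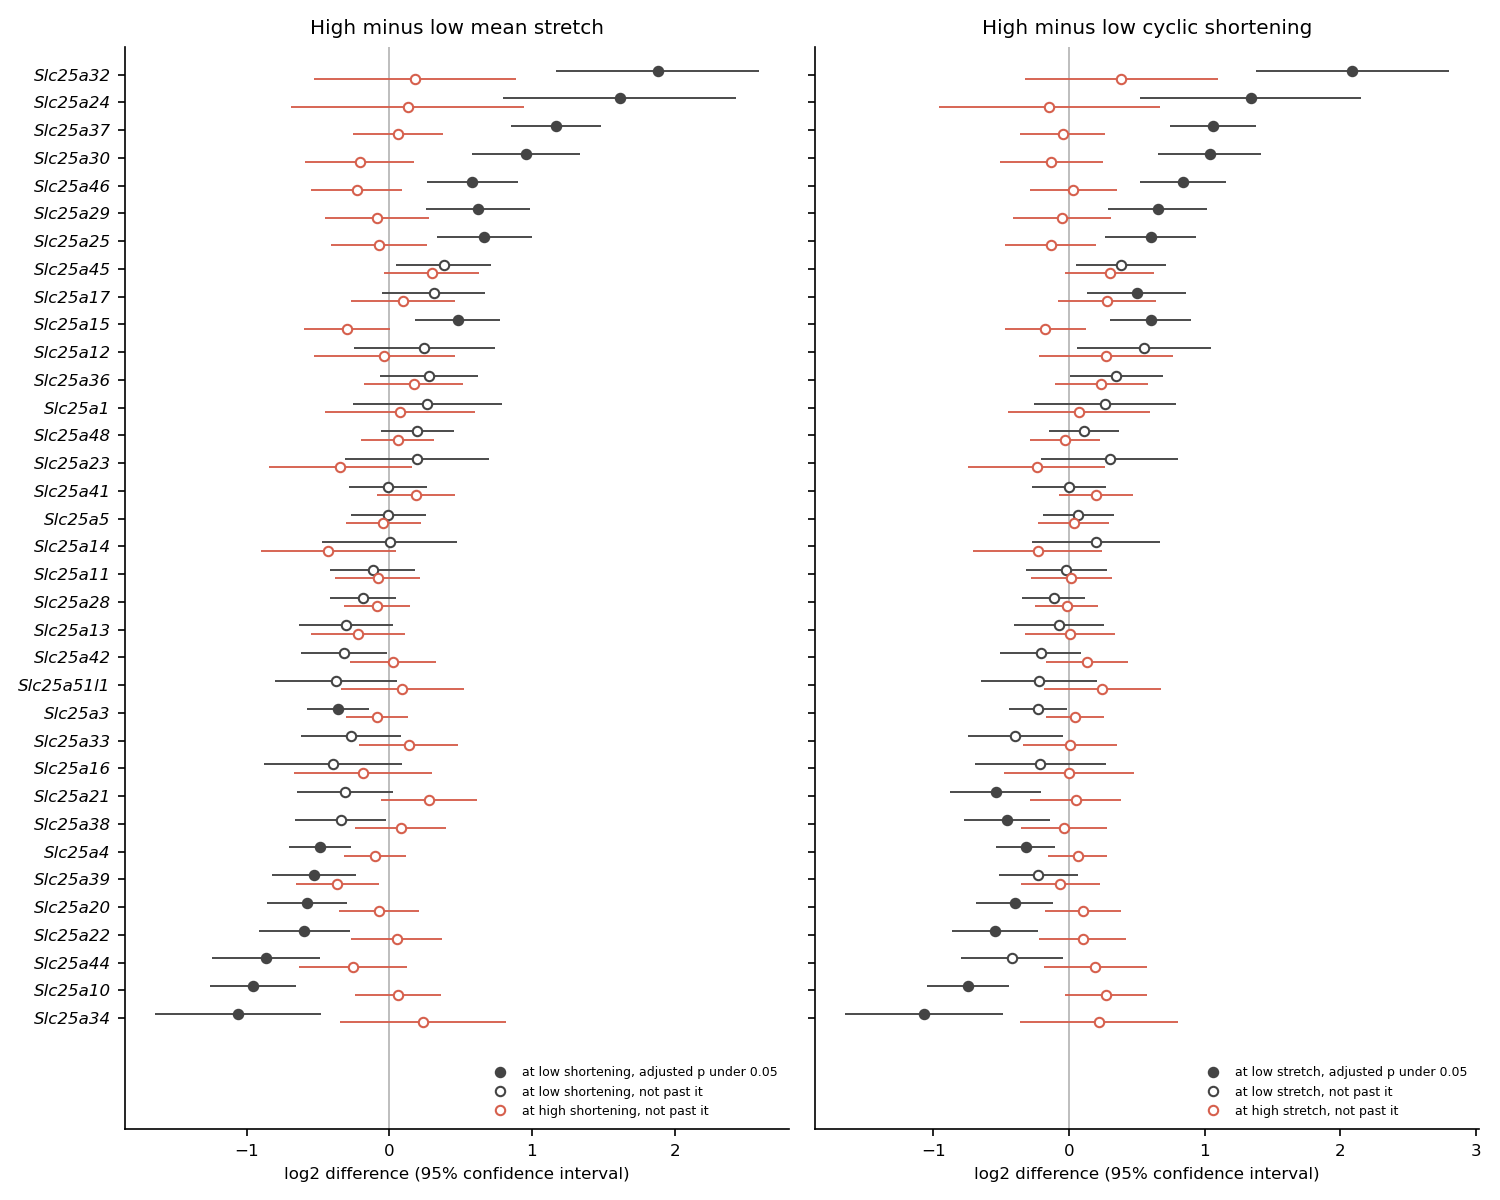
Log2 difference between high and low stretch (left) and high and low shortening (right) for 35 carriers, with 95% confidence intervals (horizontal lines); dark grey is the effect while the other input was low, red while it was high, and filled points passed an adjusted p of 0.05. Filled points occur in dark grey alone, 16 in each panel, and the red points lie between -0.43 and 0.38.

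Between the 3 groups with a high input no carrier was called. Stretch at high shortening (both-high minus shortening-high) gave 0 calls among carriers and 0% among all genes in limma, with 1 carrier and 346 genes at an unadjusted p under 0.05. The carrier was Slc25a39 at -0.36, with an interval of -0.66 to -0.07. Shortening at high stretch (both-high minus stretch-high) likewise gave 0 carriers and 0% of all genes, with 0 carriers and 392 genes at that unadjusted level. Stretch-high minus shortening-high also gave 0 carriers and 0%, with 2 carriers, Slc25a44 (-0.44) and Slc25a39 (-0.30), and 614 genes. Carrier differences ran from -0.43 to 0.30, -0.24 to 0.38 and -0.44 to 0.28 in these 3 comparisons. The median interval of a difference between 2 groups reached 0.33 to either side before adjustment. Changes smaller than about that were not detectable with 3 arrays a group. Larger changes could also be missed, because calls were adjusted over all genes: Slc25a44 at -0.44 and Slc25a39 at -0.36 were not called. For Slc25a37 the interval of the stretch effect at high shortening was -0.25 to 0.38, which leaves out the 1.17 seen at low shortening, and for Slc25a10 it was -0.24 to 0.36, against -0.96.

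Averaged over the other input, high stretch gave 11 calls among carriers (5 higher, 6 lower; 31.4%, against 35.2% of all genes) and high shortening 6, all higher (17.1%, against 33.4%). The shortening calls were Slc25a32 (1.24), Slc25a37 (0.51), Slc25a30 (0.45), Slc25a46 (0.44), Slc25a17 (0.39) and Slc25a45 (0.34). Over all genes 1602 were higher and 1848 lower with high shortening. The lack of falls among carriers depended on the processing. With every probe set past the filter 6 were higher and 3 lower, and with the 3' to 5' index in the fit 6 were higher and 2 lower. The stretch calls were Slc25a32 (1.03), Slc25a24 (0.87), Slc25a37 (0.62), Slc25a30 (0.38), Slc25a45 (0.34), Slc25a44 (-0.56), Slc25a10 (-0.45), Slc25a39 (-0.44), Slc25a20 (-0.32), Slc25a4 (-0.29) and Slc25a3 (-0.22). The interaction, which tests whether the stretch effect differed between the levels of shortening, was called for 11 carriers (31.4%, against 33.9% of all genes). Main effects average a low-input difference with a high-input one, and every carrier called in a main effect was also called in at least 1 comparison with both-low.

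The 3' to 5' index was entered as a covariate because it differed between both-low and the other arrays without overlap. Over all genes, 20.1% were called in the pooled comparison with the index, against 57.6% without it, and 8 of the 35 carriers were called with it. Of the 21 pooled calls among carriers 7 remained: Slc25a30 (1.49), Slc25a24 (2.89), Slc25a32 (2.66) and Slc25a45 (1.03) higher, and Slc25a34 (-2.11), Slc25a10 (-1.16) and Slc25a21 (-1.02) lower. Slc25a13 became a call (-0.94, adjusted p = 0.0419). The other 14 calls were lost. Of these, the value with the index was 1.02 for Slc25a37 (adjusted p = 0.0604), 0.93 for Slc25a17 (0.106), -0.78 for Slc25a39 (0.0954), -0.72 for Slc25a20 (0.119), -0.50 for Slc25a4 (0.162), -0.45 for Slc25a3 (0.195), 0.44 for Slc25a36 (0.444) and -0.41 for Slc25a22 (0.444). It was nearer 0 for Slc25a25 (0.28), Slc25a38 (-0.19), Slc25a15 (0.13), Slc25a44 (-0.05), Slc25a46 (0.04) and Slc25a29 (-0.00283), with adjusted p between 0.622 and 0.997. Index and group nearly coincide here, so this fit cannot tell them apart for a single carrier.

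Several carriers were read by more than 1 probe set, on the same arrays. Among 47 probe sets 26 were called in the pooled comparison (13 higher, 13 lower), against 56.1% of all probe sets past the filter. For 9 carriers several probe sets passed the filter, with calls in opposite directions for 2 of them, calls in the same direction in 2 probe sets for 1 (Slc25a36) and a call in only 1 probe set for 6. The brighter probe set of Slc25a46 read 10.57, 10.99 and 11.20 on the both-high arrays, 10.76, 10.88 and 11.03 on the stretch-high arrays, 11.10, 11.17 and 11.19 on the shortening-high arrays, and 10.32, 10.37 and 10.24 on the both-low arrays. Its dimmer probe set read 4.70, 5.43 and 5.94 on the both-high arrays, 4.79, 5.57 and 5.52 on the stretch-high arrays, 5.60, 5.80 and 5.40 on the shortening-high arrays, and 7.32, 7.42 and 7.54 on the both-low arrays. The brighter one was lowest and the dimmer one highest in both-low muscles, at 0.68 and -2.01 log2 (adjusted p = 0.000477 and 1.17e-05 in the fit of all probe sets). Slc25a30 was likewise divided, at 0.94 and -0.43 (0.000144 and 0.0487). For these carriers the direction depends on the probe set, and where each lies on the transcript is not given in the sources used here.

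For the other 7 carriers the probe sets differed in size, in call or in the sign of values that did not pass. Slc25a36 alone of these was called in more than 1 probe set, higher in both (0.38 and 0.66), and the dimmer one read 7.74, 8.11 and 8.25 on the both-high arrays, 7.93, 8.09 and 8.34 on the stretch-high arrays, 8.07, 8.02 and 8.09 on the shortening-high arrays, and 7.45, 7.30 and 7.49 on the both-low arrays, without overlap. Slc25a13 was not called in its brighter probe set (-0.22) and was lower in its dimmer one (-1.04, adjusted p = 0.000144), which read 6.07, 6.80 and 6.53 on the both-high arrays, 6.31, 6.37 and 6.59 on the stretch-high arrays, 6.73, 6.62 and 6.37 on the shortening-high arrays, and 7.80, 7.25 and 7.54 on the both-low arrays. Slc25a32 was 2.08 in one and 0.26, not called, in the other. Slc25a44 was -0.65 and 0.18, Slc25a10 was -0.80 and 0.0089, and Slc25a23 was 0.15 and 0.49, the last of these called (0.00157). Slc25a15 had 1 called probe set of 5 (0.46), and the other 4 lay between -0.31 and -0.01. With a gene's probe sets averaged in place of taking the brightest, Slc25a46 turned to -0.66 (adjusted p = 0.00422) and Slc25a15 to -0.02 (0.898), and Slc25a30 (0.26, 0.0821) and Slc25a44 (-0.24, 0.0802) were no longer called. Under the same rule Slc25a13 (-0.63, 0.000735) and Slc25a23 (0.32, 0.0426) became calls.

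**Figure D3:**
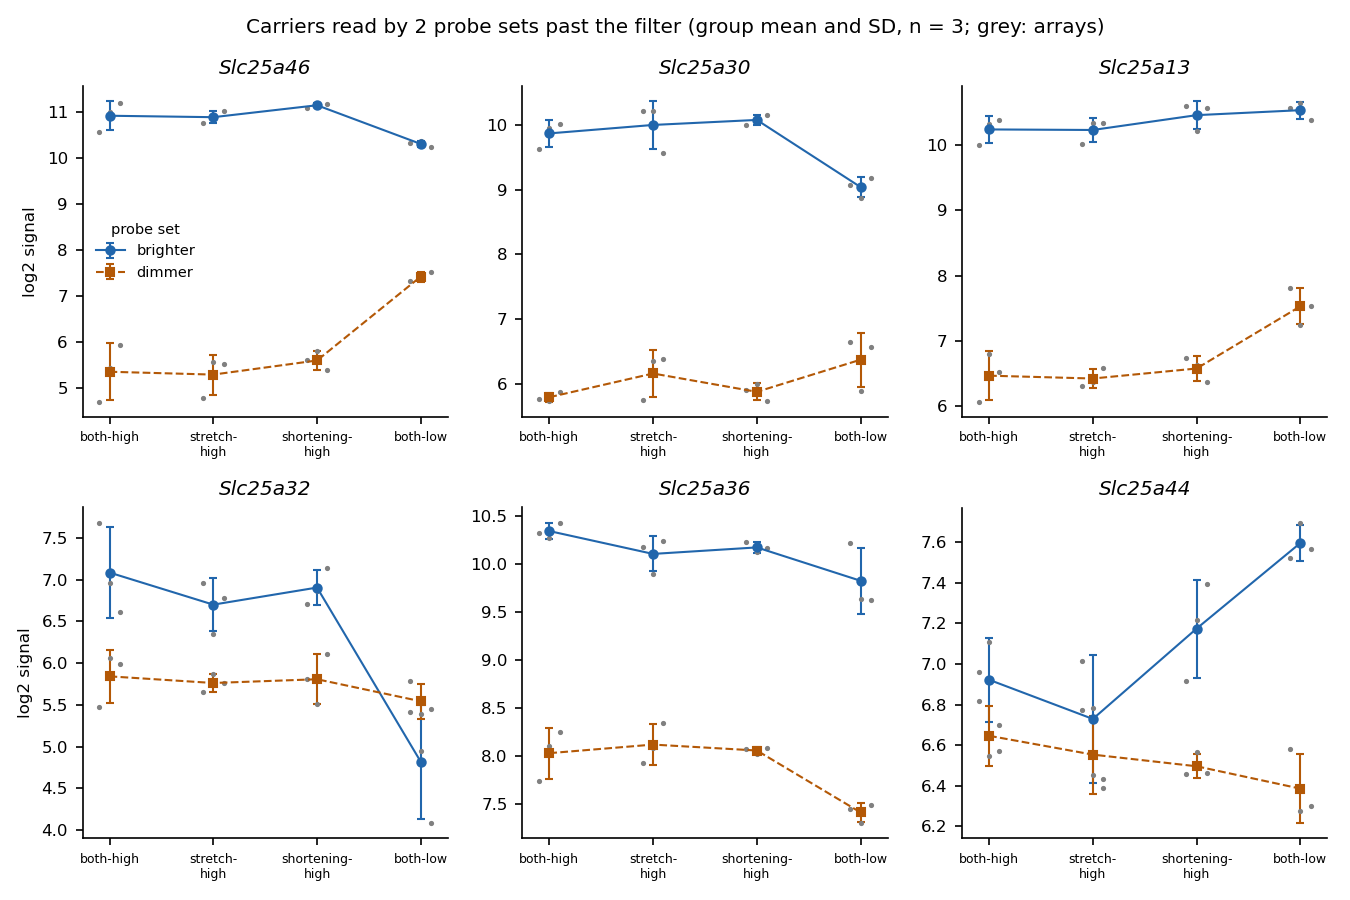
Log2 signal (vertical axes) of the brighter (blue, solid) and dimmer (orange, dashed) probe sets of 6 carriers by group (horizontal axes); symbols are group means, whiskers SD (n = 3) and grey points arrays. For Slc25a46 and Slc25a30 the probe sets move in opposite directions in both-low muscles, and for Slc25a36 in the same direction.

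By rank of mean signal among the 10316 genes, Slc25a4 was 13th and Slc25a3 18th, followed by Slc25a5 (113), Slc25a11 (454), Slc25a46 (1012), Slc25a12 (1406), Slc25a13 (1411), Slc25a36 (1705), Slc25a20 (2025) and Slc25a30 (2143). Probe sets bind with different strength, so these ranks describe array signal and are no order of transcript amount. The brightest 1% of genes held 2 carriers, the brightest 5% held 4, and the brighter 50% held 17 of 35. Slc25a4 ranged between ranks 3 and 20 over the 12 arrays, with mean ranks of 16, 17.3 and 12.3 in both-high, stretch-high and shortening-high muscles and 7 in both-low muscles. The rank of Slc25a24 averaged 2254, 2148 and 2570 in the groups with a high input, against 4846 in both-low muscles. Slc25a32 averaged ranks 6646, 7284 and 7027 in the groups with a high input, and its both-low mean of 4.82 was under the filter, so that no rank is given there. Near the top the values were steady: Slc25a3 and Slc25a4 had the smallest spread within groups among the carriers (SD 0.07 each).

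**Figure D4:**
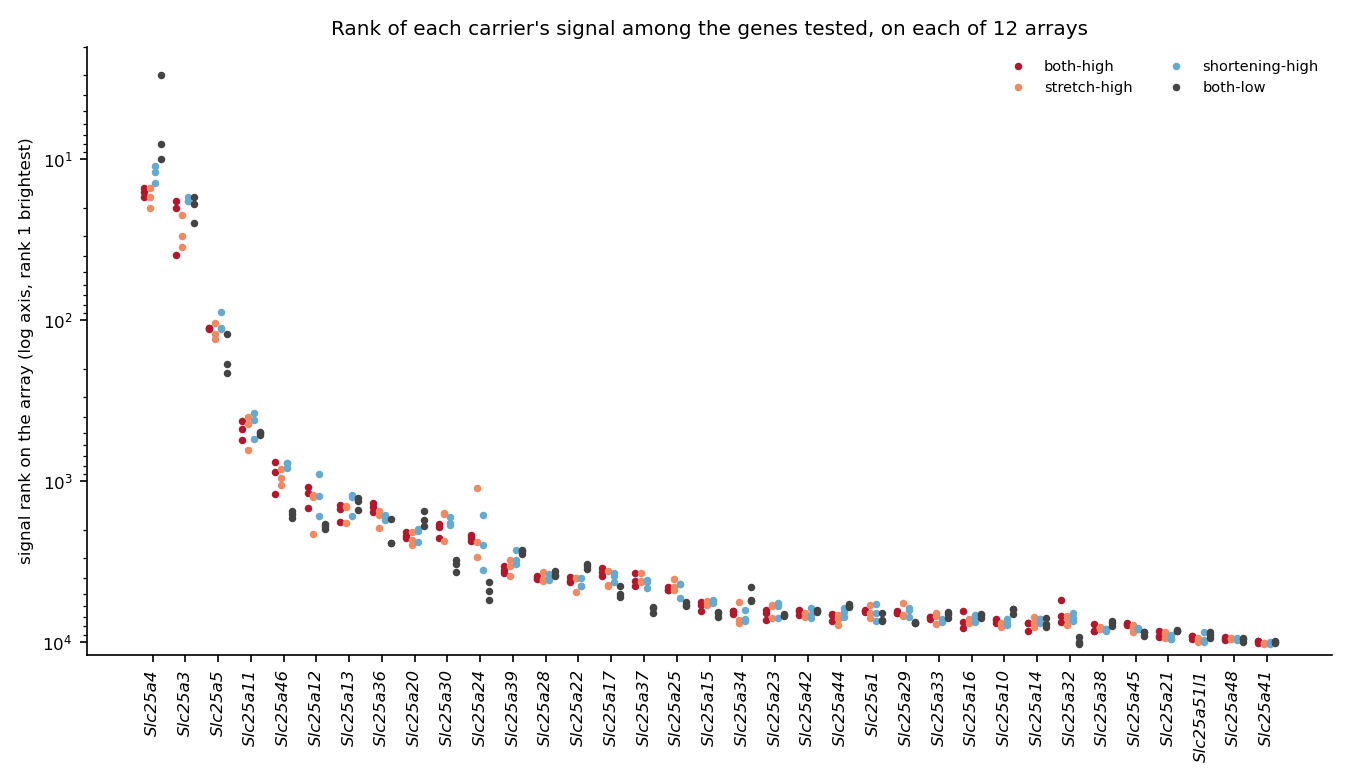
Rank of each carrier's signal (vertical log axis, rank 1 brightest and at the top) on each of the 12 arrays, by carrier (horizontal axis) and group (colour). Slc25a4 and Slc25a3 lie between ranks 3 and 39 on all arrays, and Slc25a24 averages ranks 2254, 2148 and 2570 in the groups with a high input, against 4846 in both-low muscles.

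Promoter sequence was available for 29 of the 35 tested carriers (RefSeq, assembly GRCr8, 250 bases before to 50 after the start). The ETS core, CCGGAAG, bound by nuclear respiratory factor 2 among others, was searched on both strands and was found in 6 of 29 carrier windows (20.7%), against 8.75% of 33469 promoters of the same length. It lay in Slc25a4, Slc25a3, Slc25a20 and Slc25a38, all lower with a high input, in Slc25a17, which was higher, and in Slc25a14, which was not called. The cyclic AMP response element, TGACGTCA, was in Slc25a25 and Slc25a33 (6.9%, against 1.83%), and the half-site of oestrogen-related receptors, AAGGTCA, in Slc25a34 alone (3.45%, against 4.61%). The GC box, GGGCGG, was in 22 carriers (75.9%, against 33.1%), the CCAAT box in 17 (58.6%, against 37.5%) and the E-box CACGTG in 2 (6.9%, against 6.42%). Carriers were counted as genes past the filter, and the background as windows of all RefSeq promoters with no filter on signal. The shares thus compare unlike sets. These motifs were chosen after results were known, and a match describes the letters of a window, with no bearing on binding in these muscles. The 250 bases before the start are given below for the 3 brightest carriers with the ETS core, which were lower together, and for Slc25a25, which was higher. Capitals mark the ETS core in the first 3 and the cyclic AMP response element in the last.
Slc25a4 (chr16:52805271-52805520, GRCr8, plus strand, core from 161 bases before the start): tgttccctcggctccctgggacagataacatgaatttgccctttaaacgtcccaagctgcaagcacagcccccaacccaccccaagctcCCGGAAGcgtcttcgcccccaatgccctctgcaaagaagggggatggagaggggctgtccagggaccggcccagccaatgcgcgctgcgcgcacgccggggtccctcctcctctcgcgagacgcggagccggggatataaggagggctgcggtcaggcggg
Slc25a3 (chr7:27506628-27506877, GRCr8, minus strand, core from 129 bases before the start): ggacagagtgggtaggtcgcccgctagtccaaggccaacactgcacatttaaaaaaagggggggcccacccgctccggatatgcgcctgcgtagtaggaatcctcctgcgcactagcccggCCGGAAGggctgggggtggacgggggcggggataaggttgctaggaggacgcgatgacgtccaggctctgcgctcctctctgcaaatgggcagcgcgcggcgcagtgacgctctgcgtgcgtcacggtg
Slc25a20 (chr8:118243323-118243572, GRCr8, plus strand, core from 69 bases before the start): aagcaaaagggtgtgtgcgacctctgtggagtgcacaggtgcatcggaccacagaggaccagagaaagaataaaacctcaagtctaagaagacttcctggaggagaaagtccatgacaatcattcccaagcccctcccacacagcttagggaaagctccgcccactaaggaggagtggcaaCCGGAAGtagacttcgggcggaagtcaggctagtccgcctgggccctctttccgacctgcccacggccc
Slc25a25 (chr3:36116582-36116831, GRCr8, minus strand, element from 158 bases before the start): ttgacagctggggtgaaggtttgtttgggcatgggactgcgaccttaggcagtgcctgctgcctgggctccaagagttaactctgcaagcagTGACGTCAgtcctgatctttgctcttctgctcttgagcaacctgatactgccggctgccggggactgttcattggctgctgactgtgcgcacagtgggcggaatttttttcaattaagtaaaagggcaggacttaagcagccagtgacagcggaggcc
The start used for Slc25a25 lies inside its annotated gene (chr3:36106448-36139812, GRCr8), which covers all 250 bases printed. The annotated gene of Slc25a3 (chr7:27499164-27506685, GRCr8) covers 58 of the 250 bases printed for it, those nearest the start.

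Genes that work with the carriers gave counts of their own in the pooled comparison, in which 57.6% of all genes were called, 28.2% higher and 29.4% lower. Of members of the same protein family under other symbols, Ucp2, an uncoupling protein, was lower (-0.95, SE 0.08) and so was Mtch1, an outer-membrane relative (-0.78, SE 0.10), whereas Mtch2 (0.17) and Ucp3 (0.05) were not called and Ucp1 was under the filter. Of 16 genes of the pathway that inserts carriers into the inner membrane, 10 were lower and 3 higher, with a median of -0.55. Tomm40, the pore of the outer membrane (-1.59), Tomm7, a small subunit beside it (-1.71), and Timm13, a chaperone between the membranes (-1.18), were lower, and Timm22, which inserts carriers into the inner membrane, was higher (1.41). Of 21 other mitochondrial transport genes 11 were lower and 6 higher, among them Vdac1, the main channel of the outer membrane (-2.39), Mpc1, a subunit of the pyruvate carrier (-1.57), Abcb8 (-1.18) and Letm1, which acts in potassium and proton exchange (1.04). Of 13 enzymes that hand substrates to the carriers, 4 were lower and 3 higher: citrate synthase Cs (-1.01), Cpt1b (-1.24) and Cpt1a (-1.32), which make acylcarnitine, were lower and Got2, the aspartate aminotransferase of the shuttle, was higher (0.40). None of these genes was called at high shortening or at high stretch. The carriers' median of -0.01 lay above those of the import (-0.55) and other transport lists (-0.40) and near that of the enzymes (-0.04), and these differences between lists were not tested.

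**Figure D5:**
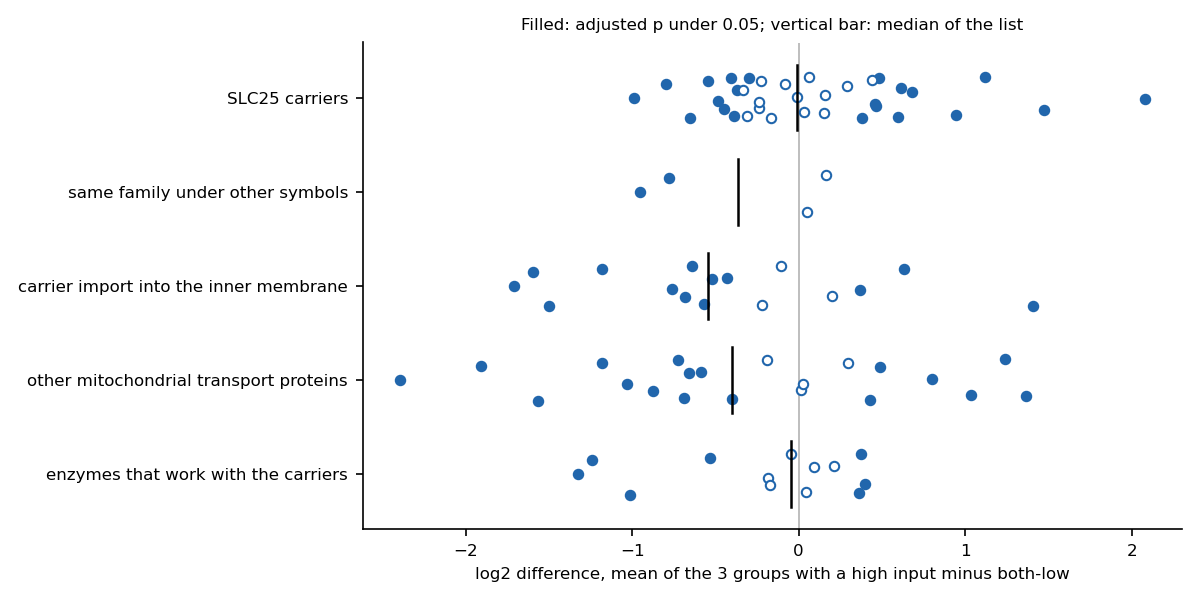
Log2 difference between the mean of the 3 groups with a high input and both-low muscles (horizontal axis) for the carriers and for 4 lists of related genes (rows); filled points passed an adjusted p of 0.05 and the vertical bar is the list's median. Carriers spread to both sides of 0, and the import and transport lists have medians of -0.55 and -0.40.

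Markers of the cells in the muscle were read in the pooled comparison too. In it 57.6% of all genes were called, 28.2% higher and 29.4% lower. The summed linear signal of the 9 cardiomyocyte markers was 87046 to 96955 on the 9 arrays with a high input and 117457 to 120160 on the both-low arrays, with 5 markers lower and 1 higher of 9. Fibroblast markers summed to 8002 to 11298 with a high input and 10275 to 11088 in both-low muscles, with 2 of 6 lower (Col1a2 and Col3a1) and 1 higher. Endothelial (2 higher, 2 lower of 6) and macrophage markers (2 higher, 2 lower of 6) divided, and 1 of 5 smooth muscle markers was lower. Of the adipocyte markers, Adipoq, Plin1, Cidec, Lep and Ucp1 were under the filter, and Cidea was lower with a high input (-1.61). Of the markers of skeletal muscle Myh4, Myh2, Actn3 and Tnnt3 were under the filter, and Ckm, a creatine kinase that heart muscle also makes, was lower with a high input (-0.29, adjusted p = 0.0113). Hbb, a red blood cell marker, was lower too (-0.93, adjusted p = 0.0274). The part of these shifts in the carrier differences was not tested.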

How the data were processed

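Total RNA of 12 muscles was labelled and hybridized to Affymetrix arrays. The deposited table holds log2 signals of 31099 probe sets, made by the authors with RMA according to the labels' list of tools (version not stated). A deposited filtered log2 table of 16391 probe sets had identical values and served as an alternative. Of 20826 probe sets with 1 symbol, 20758 were matched to RefSeq (GRCr8). Probe sets under the 40th percentile of mean signal (4.91) were removed, and each of 10316 genes was read from its brightest probe set. Group means were fitted with limma 3.58.1 in R 4.3.3, with Benjamini-Hochberg adjustment over all genes and a threshold of 0.05. The fit was tested on simulated data. Figures used matplotlib 3.10.9 in Python 3.11.15.

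The members, lists and tests were chosen with earlier results of these data known. All carriers were accounted for, by role, with the 10 largest rises and falls of each comparison, the 10 brightest carriers, and the 4 genes at most with the smallest adjusted p of each related list. Alternatives were other filters, repeated quantile normalization, other rules for probe sets, a trended robust prior, the replicate number as a block, the 3' to 5' index, values under the filter raised to it, and leaving out each array. Fits of the 3 groups with a high input without the both-low arrays were added after the data were seen. Labels call the muscles separate animals, and no array date or slide was used. Same-numbered residuals of 18 pairs had r of -0.195 to 0.296 (mean 0.00721, against -0.00285 for other pairs), so numbers were treated as unpaired. The number of arrays limits the precision. RefSeq lists 31 pseudogenes of this family, 9 of Slc25a5 and 8 of Slc25a39, and whether probes also read these copies was not checked.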

Additional observations from a re-analysis of the deposited data

Results flagged for a closer look

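For 11 carriers, read from their brightest probe sets, the effect of stretch differed between the levels of shortening (interaction, limma, adjusted over all genes). That is 31.4% of the carriers, against 33.9% of all genes, so the count is near the background. Each value is the stretch effect at high shortening minus that at low shortening, in log2, and a value opposite in sign to the low-shortening effect means that the effect was smaller or of the other sign at high shortening. Among carriers higher with a high input it was -1.70 for Slc25a32 (adjusted p = 0.0137), -1.48 for Slc25a24 (0.0475), -1.17 for Slc25a30 (0.00337), -1.11 for Slc25a37 (0.00148), -0.81 for Slc25a46 (0.00992), -0.78 for Slc25a15 (0.00906), -0.74 for Slc25a25 (0.0208) and -0.71 for Slc25a29 (0.0363). Among carriers lower with a high input it was 1.29 for Slc25a34 (0.02), 1.02 for Slc25a10 (0.00192) and 0.65 for Slc25a22 (0.0301). In all 11 the stretch effect at low shortening was past the threshold and that at high shortening was not. None of the 11 passed once the 3' to 5' index entered the fit, and all 11 rest on the 3 both-low arrays. With the mean of its probe sets in place of the brightest, the Slc25a46 value turned to 0.54 (limma, adjusted p = 0.17).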

How the results depend on the processing

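Once the 3' to 5' index entered the fit, the carriers called became 4 (stretch at low shortening, 16 without it), 6 (shortening at low stretch, 16), 10 (both inputs high, 19), 8 (pooled, 21), 5 (stretch main effect, 11) and 0 (interaction, 11). The share of all genes called with the index was 13%, 19.6%, 25.7%, 20.1%, 14.2% and 7.14% in these comparisons. For the shortening main effect 8 carriers were called with the index (6 higher, 2 lower) and 6 without it (all higher), against 27.1% and 33.4% of all genes. Leaving out 1 array gave 16 to 18 carriers for stretch at low shortening, 14 to 19 for shortening at low stretch, 16 to 19 for both inputs high, 18 to 23 pooled, 0 to 0 in each comparison of groups with a high input, 9 to 12 for the stretch main effect, 4 to 9 for the shortening main effect (4 without shortening-high replicate 1) and 7 to 12 for the interaction (7 without both-low replicate 1). Over all genes, leaving out 1 array gave 44% to 51.3% called for stretch at low shortening and 42.6% to 50.2% for shortening at low stretch. It gave 43.3% to 50.6% for both inputs high and 50.1% to 57.7% pooled. The main effects ran from 29.5% to 34.4% for stretch and from 28.3% to 33.4% for shortening, and the interaction from 28.7% to 33.2%. Under the other alternatives run, counts of carriers stayed within 1.5 times, and the comparisons of groups with a high input kept 0 carriers called, also without the both-low arrays. Repeated quantile normalization moved the split to 12 higher and 5 lower for shortening at low stretch (9 and 7 otherwise), 13 and 6 for both inputs high (10 and 9) and 6 and 4 for the stretch main effect (5 and 6), and it moved the median of all genes by less than 0.1. All genes moved the same way, to 2709 higher and 2342 lower (2477 and 2574 otherwise) for shortening at low stretch. They gave 2773 and 2347 (2393 and 2726) for both inputs high and 1821 and 1816 (1459 and 2168) for the stretch main effect.

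Values past the threshold before or after that turned were Slc25a5 for stretch at low shortening under repeated quantile normalization (0.30, adjusted p = 0.0469), Slc25a46 with the mean of its probe sets (-0.77 and -0.49 for stretch and shortening alone, -0.73 for both, -0.66 pooled, -0.22 for the shortening main effect, 0.54 for the interaction), Slc25a15 with that mean (-0.063 for stretch alone, -0.015 pooled), and with the index Slc25a46 (-0.21 for stretch alone, 0.073 for the interaction) and Slc25a29 (-0.14, -0.00283 pooled, 0.14 for the interaction). Of pooled values past the threshold in neither fit, the index turned Slc25a12 (-0.73), Slc25a23 (-0.998), Slc25a33 (0.21) and Slc25a41 (-0.09). For these and the index fits the cause was not tested. With the replicate number as a block 21 carriers were called pooled and 11 in the interaction, as without it, and the pairing changed no count by over 1.5 times. Another background correction could not be run from these normalized tables.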
